A study of Homo sapiens with 24 samples.

Results

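The 4 eIF2alpha kinases, their substrate and the subunits that guide its phosphatase were followed in Hodgkin lymphoma cells. Every probe whose gene symbol in the platform's probe table was EIF2AK1, EIF2AK2, EIF2AK3, EIF2AK4, EIF2S1, PPP1R15A or PPP1R15B was taken, which gave 9 of the 47323 probes on the array for these 7 genes. EIF2AK1 and PPP1R15B had 2 probes each and the other genes 1 each. All 9 probes passed the filter on low values, a detection p under 0.05 on at least 3 arrays, together with 24578 probes in all.

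The study treated 4 established Hodgkin lymphoma lines from a cell bank with AEZS-136 and measured mRNA on 24 Illumina bead arrays. AEZS-136 is an ATP-competitive compound that the study describes as a dual inhibitor of PI3K and ERK. In each line, cells exposed to 10 µM AEZS-136 for 2 h were set against the control of the same 2 h, which the study describes as vehicle-treated with DMSO, with 3 arrays in each of the 8 groups. By cell death at later times, the resistant lines were KM-H2 and L-428, and the sensitive lines were L-540 and SUP-HD1. Each class thus rests on 2 lines.

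Between 16876 and 19524 probes were detected per array, and precision is limited by how few arrays there were. The labels do not say whether replicate arrays hold separate cultures, so p-values measure only the spread between arrays, which may be technical. Of 6 Hodgkin Reed-Sternberg cell markers, 6 were detected on every control array of L-540 and 5 in each other line, where the only probe of TNFRSF8 (CD30) was not. T cell markers were detected for 4 of 7 genes in KM-H2, 0 in L-428, 2 in L-540 and 1 in SUP-HD1, and of 4 measured B cell genes CD79A was detected in every line, CD79B in all but L-540, and MS4A1 and PAX5 in none. Of 3 myeloid genes, 2 were detected in KM-H2 (CD14 and CSF1R), 0 in L-428, and 1 (CSF1R) in L-540 and in SUP-HD1. The order in which the arrays had been exported was cut at its midpoint, a choice made here because no slide is named. Export set 1 holds the earlier 12 arrays and export set 2 the later 12. These sets are not known batches, and every group has 1 or 2 arrays in each set.

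Phosphorylation of eIF2alpha, the product of EIF2S1, is the switch of the integrated stress response. Phosphorylated eIF2 blocks its own exchange factor, eIF2B, so that most translation initiation slows while a few mRNAs, ATF4 among them, are translated better. The kinases sense different stresses: HRI (EIF2AK1) responds to heme shortage and mitochondrial stress, PKR (EIF2AK2) to double-stranded RNA, PERK (EIF2AK3) to unfolded proteins in the endoplasmic reticulum, and GCN2 (EIF2AK4) to amino acid shortage. GADD34 (PPP1R15A) and CReP (PPP1R15B) bring protein phosphatase 1 to eIF2alpha and remove the phosphate. GADD34 is the stress-induced subunit and CReP the constitutive one. The arrays measure mRNA only, so they hold no value for kinase activity or for the phosphorylation itself.

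The 250 bases before the start of both phosphatase subunit genes are shown because these genes responded differently. Among the members searched, only their promoter windows held a stress motif. RefSeq promoter windows (GRCh38.p14, 250 bases before to 50 after the start) matched 6 of the 7 genes, and EIF2AK1 had no window to search. They were searched on both strands for TGATGNAA, the core of the C/EBP-ATF element, and for TGACGTCA, the cAMP response element, which do not overlap here. The windows were PPP1R15A, chr19:48872171-48872420 on the plus strand, and PPP1R15B, chr1:204411818-204412067 on the minus strand. Capitals mark the match and each sequence runs 5′ to 3′ along its gene.
PPP1R15A: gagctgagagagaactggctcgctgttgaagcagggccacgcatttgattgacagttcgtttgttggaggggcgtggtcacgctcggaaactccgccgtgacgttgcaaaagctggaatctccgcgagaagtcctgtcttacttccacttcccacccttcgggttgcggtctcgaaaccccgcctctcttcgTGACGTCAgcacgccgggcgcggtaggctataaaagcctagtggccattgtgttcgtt
PPP1R15B: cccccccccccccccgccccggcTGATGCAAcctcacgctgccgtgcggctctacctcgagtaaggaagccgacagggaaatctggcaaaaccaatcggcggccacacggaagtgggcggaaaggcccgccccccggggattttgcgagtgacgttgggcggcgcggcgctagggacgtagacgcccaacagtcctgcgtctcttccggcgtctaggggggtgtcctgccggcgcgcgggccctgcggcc
The PPP1R15A window held 1 cAMP response element, which 1.85% of all 35116 windows of this length hold. The PPP1R15B window held 1 match to the C/EBP-ATF core, found in 3.62% of windows. Neither string was in the windows of EIF2AK2, EIF2AK3, EIF2AK4 or EIF2S1. A match says only that the letters are there.

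The clearest response was that of PPP1R15A, which rose in every line after 2 h. Levels are log2 values of background-corrected, quantile-normalised intensity. In KM-H2 the AEZS-136 arrays read 10.79, 10.83 and 10.67, against 9.16, 9.08 and 9.03 in controls. In L-428 the treated arrays read 10.55, 10.55 and 10.57, against 9.54, 9.53 and 9.54 in controls. Treated and control arrays did not overlap, and both lines reached similar levels with the compound. In L-540 the treated arrays read 10.52, 10.38 and 10.43, against 7.92, 8.05 and 8.24 in controls. In SUP-HD1 they read 9.57, 9.57 and 9.64, against 8.09, 7.77 and 7.86 in controls. These sensitive lines had the lower control levels, and again no treated array overlapped a control.

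**Figure D1:**
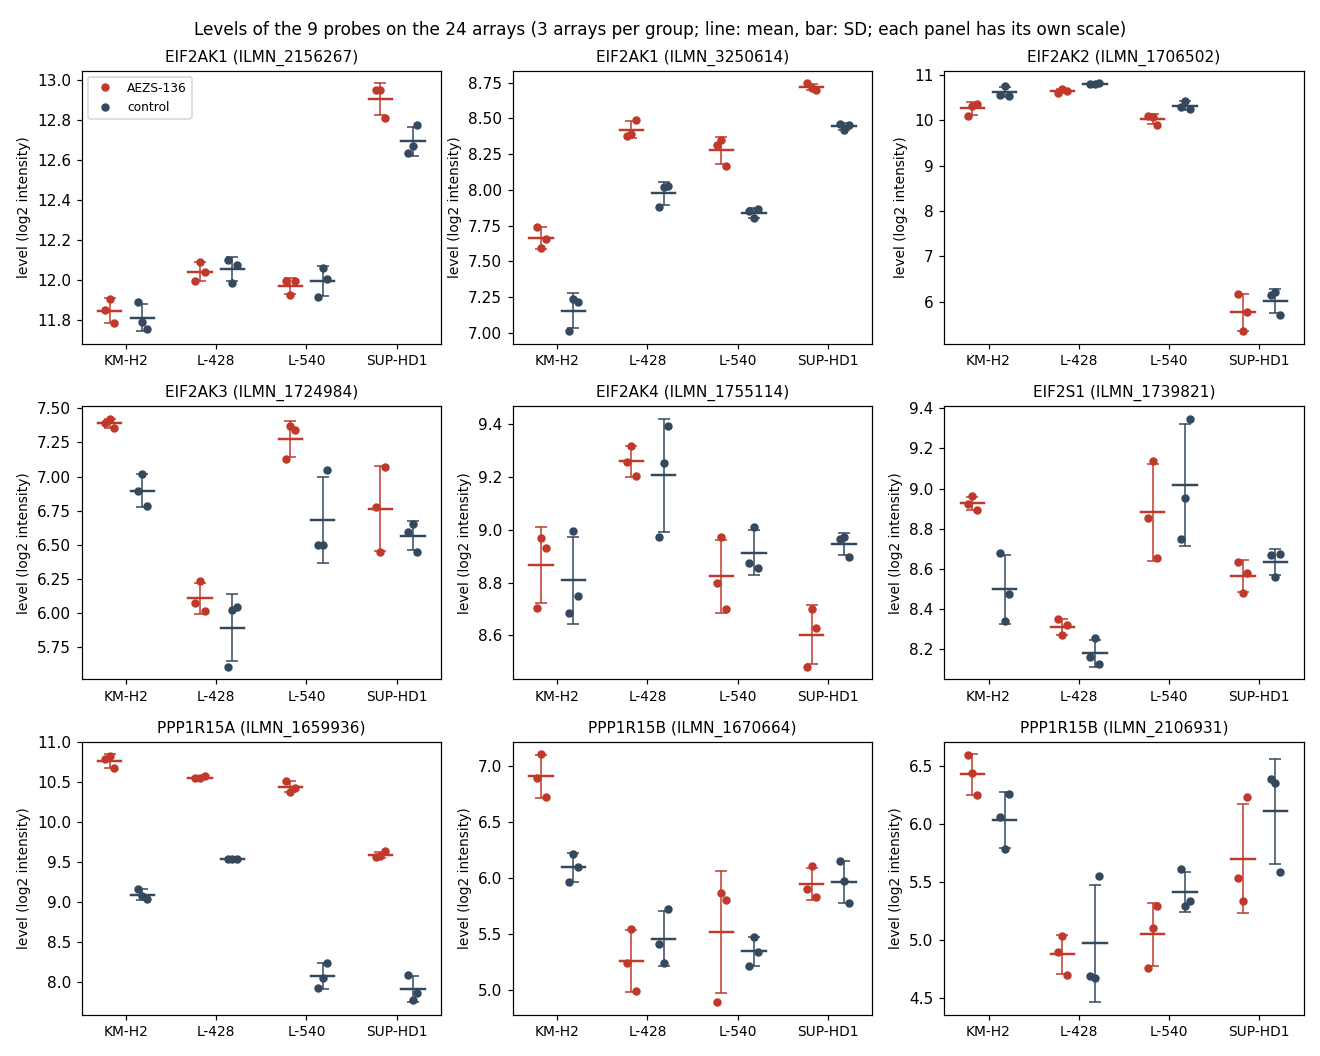
Level of each of the 9 probes (log2 intensity, vertical axis) in the 4 lines, with the 3 AEZS-136 arrays left of the 3 control arrays; lines are means and bars SDs. PPP1R15A stands above control in every line, while EIF2AK2 is far lower in SUP-HD1 than elsewhere with either treatment.

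The rise of PPP1R15A was 1.68 ± 0.09 in KM-H2, 1.02 ± 0.09 in L-428, 2.37 ± 0.09 in L-540 and 1.68 ± 0.09 in SUP-HD1 (log2 difference ± model SE). These are 3.20-, 2.03-, 5.18- and 3.21-fold. Limma's adjusted p, after Benjamini-Hochberg over all 24578 probes, was 9.5e-11 in KM-H2, 2.0e-07 in L-428, 6.9e-13 in L-540 and 1.5e-10 in SUP-HD1. A probe is called here at an adjusted p under 0.05 with a log2 difference over 0.4 either way, the study's thresholds. By the size of its rise PPP1R15A ranked 34 among all kept probes in KM-H2, 140 in L-428, 5 in L-540 and 7 in SUP-HD1. The mean over the lines was 1.69 ± 0.04 (limma adjusted p = 2.7e-16), and within the export sets the mean was 1.66 in set 1 (adjusted p = 4.3e-05 by limma) and 1.73 in set 2 (adjusted p = 0.00028 by limma). More of a transcript per cell and a larger share of cells that hold it cannot be told apart in such bulk RNA.

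The size of the PPP1R15A rise differed between lines. It was smaller in the resistant lines than in the sensitive ones (difference of the log2 changes −0.68 ± 0.09, limma adjusted p = 0.00015), in a comparison that called 2.1% of all probes. This class difference did not describe all lines alike. L-428 rose least and L-540 most, while KM-H2 and SUP-HD1, from opposite classes, differed by −0.01 (95% interval −0.27 to 0.26). Within the export sets the class difference was −0.68 and −0.67 and was not called. Some groups hold only 1 array in a set, so the test within a set could not decide.

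Each of the other pairs of lines differed in the PPP1R15A rise. KM-H2 minus L-428 was 0.66 and KM-H2 minus L-540 was −0.70. L-428 minus L-540 was −1.35, L-428 minus SUP-HD1 −0.66 and L-540 minus SUP-HD1 0.69, and limma's adjusted p was at most 0.0079 over these 5 pairs. These were the only calls among 54 tests of 9 probes in 6 pairs of lines, 9.26% against 2.88% over all probes. The share of all probes called was 1.97% for KM-H2 against L-428, 3.02% for KM-H2 against L-540, 5.24% for KM-H2 against SUP-HD1, 1.62% for L-428 against L-540, 1.77% for L-428 against SUP-HD1 and 3.67% for L-540 against SUP-HD1.

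Across lines the PPP1R15A means spread over 1.18 with AEZS-136 and over 1.63 in controls (log2 range). In controls L-428 was highest (9.54 ± 0.01, SD, n = 3), followed by KM-H2 (9.09 ± 0.07). L-540 (8.07 ± 0.16) and SUP-HD1 (7.91 ± 0.16) came last and did not differ beyond their spread (0.16, limma adjusted p = 0.14). The other 5 pairs of control levels were called.

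PPP1R15B, the constitutive counterpart (chr1:204395826-204411817), did not share the rise of PPP1R15A (chr19:48872421-48876058). Its probes were dim: ILMN_1670664 was detected on 22 and ILMN_2106931 on 19 of 24 arrays. On ILMN_1670664 the KM-H2 arrays read 6.90, 7.11 and 6.72 with AEZS-136, against 6.10 ± 0.13 in controls (SD, n = 3), and the probe rose by 0.81 ± 0.20 (limma adjusted p = 0.0080). The difference was 0.77 in export set 1 and 0.89 in set 2, called only in the first, and 0.36 on the authors' normalized values, where it was not called. It was not called in L-428 (−0.20), L-540 (0.18) or SUP-HD1 (−0.02). ILMN_2106931 was called in no line, with differences of 0.39 in KM-H2, −0.09 in L-428, −0.36 in L-540 and −0.41 in SUP-HD1 and intervals that all included 0.

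The change of PPP1R15A exceeded that on ILMN_1670664 of PPP1R15B on the same arrays by 0.87 in KM-H2, 1.22 in L-428, 2.20 in L-540 and 1.70 in SUP-HD1 (log2 differences). It was larger in 4 of 4 lines (exact permutation of treatment within lines, two-sided p = 1.2e-05, the smallest it can give, and 2.5e-05 adjusted over 4 probe pairs). All 4 probe pairs were tested only after the values were seen, so these p-values only describe. ILMN_1670664 was detected on 2 of 3 treated arrays in L-428 and in L-540, and on all 3 arrays of every other group. The changes on the 2 PPP1R15B probes differed from each other by 0.31, with the larger value on ILMN_1670664 in 3 of 4 lines (exact permutation adjusted p = 0.035), but ILMN_2106931 was detected on 1 of 3 arrays in each L-428 group and on 2 of 3 treated L-540 arrays. In controls ILMN_1670664 was higher in KM-H2 and SUP-HD1 than in L-428 and L-540, with KM-H2 minus L-428 at 0.64 (limma adjusted p = 0.011) and L-540 minus SUP-HD1 at −0.62 (limma adjusted p = 0.013). KM-H2 and SUP-HD1 did not differ by the test on either probe.

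EIF2AK1 (chr7:6022247-6059175) gave a small rise on 1 of its probes only. ILMN_3250614 read 7.74, 7.59 and 7.66 with AEZS-136 in KM-H2, against 7.01, 7.23 and 7.22 in controls. In L-428 it read 8.38, 8.39 and 8.49 with the compound, against 7.88, 8.02 and 8.03 in controls. Treated and control arrays of this probe did not overlap in any line. In L-540 it read 8.31, 8.35 and 8.17 with the compound, against 7.85, 7.80 and 7.87 in controls. In SUP-HD1 it read 8.75, 8.71 and 8.70, against 8.46, 8.42 and 8.45 in controls. The rise was 0.51 ± 0.08 in KM-H2, 0.45 ± 0.08 in L-428 and 0.44 ± 0.08 in L-540, with limma adjusted p-values of 0.00010, 0.00074 and 0.00067. In SUP-HD1 the difference of 0.28 ± 0.08 had an adjusted p of 0.032 by limma but lay under the size required.

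The mean of ILMN_3250614 over the lines was 0.42 ± 0.04 (limma adjusted p = 7.0e-08), just past the threshold of 0.4. It was 0.41 and 0.40 within export sets 1 and 2, the second under the threshold, and 0.28 on the authors' normalized values, where neither it nor any single line was called. Without control replicate 1 of KM-H2 the mean also fell just under the threshold, as did L-428 without its control replicate 1 (0.40 each). ILMN_2156267, annotated to another transcript of EIF2AK1, differed by 0.03 in KM-H2, −0.01 in L-428, −0.02 in L-540 and 0.21 in SUP-HD1 and was called nowhere. Over the lines its mean was 0.05 (95% interval −0.03 to 0.13). The changes on the 2 probes differed by 0.36, in the same direction in 4 of 4 lines (exact permutation adjusted p = 6.7e-05), but by only 0.06 in SUP-HD1. In controls both probes were highest in SUP-HD1. The other lines minus SUP-HD1 ran from −1.29 in KM-H2 to −0.47 in L-428 on ILMN_3250614, and from −0.88 in KM-H2 to −0.64 in L-428 on ILMN_2156267, all called. L-428 and L-540 did not differ by the test on either probe (adjusted p = 0.17 and 0.55 by limma).

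EIF2AK2, which encodes PKR (chr2:37099210-37156980), showed the widest range between lines. Its control arrays read 10.56, 10.75 and 10.54 in KM-H2, 10.79, 10.80 and 10.81 in L-428 and 10.29, 10.43 and 10.24 in L-540. In SUP-HD1 they read 6.14, 6.21 and 5.71, and the probe was detected on all of them. Its intensities there were low before correction, 136.4 to 187.7, beside array medians of 96 to 127.9. The folds against SUP-HD1 thus rest on a dim level. Control levels were 24.2-fold higher in KM-H2, 27.4-fold in L-428 and 19.7-fold in L-540 than in SUP-HD1 (limma adjusted p at most 8.0e-16). On the authors' normalized values the same levels were 9.83-fold higher in KM-H2, 11.03-fold in L-428 and 8.07-fold in L-540 than in SUP-HD1, so the order held but the size moved with the processing. KM-H2 did not differ from L-428 or from L-540 by the test, and L-428 exceeded L-540 by 0.48 (limma adjusted p = 0.012).

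With AEZS-136 the EIF2AK2 difference was −0.36 in KM-H2, −0.17 in L-428, −0.30 in L-540 and −0.25 in SUP-HD1, and none was called. Its mean over the lines was −0.27 ± 0.08, with an adjusted p of 0.012 by limma but a size under the threshold. Treated arrays all lay below control arrays in KM-H2, L-428 and L-540, and overlapped them in SUP-HD1. The share of all probes whose arrays separate in this way is not given here. For this probe and the other members, such separation therefore only describes the arrays.

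EIF2AK3, which encodes PERK (chr2:88556741-88628145), rose in KM-H2 and L-540. In KM-H2 the treated arrays read 7.39, 7.42 and 7.35, against 6.89, 7.02 and 6.78 in controls, a rise of 0.49 ± 0.16 (limma adjusted p = 0.038). In L-540 they read 7.13, 7.37 and 7.34, against 6.50, 6.50 and 7.05 in controls, a rise of 0.60 ± 0.16 (limma adjusted p = 0.015). The L-540 control at 7.05 lay close to the treated arrays. On the authors' normalized values the differences were 0.26 in KM-H2 and 0.34 in L-540 and not called. Within export sets 1 and 2 they were 0.54 and 0.40 in KM-H2 and 0.31 and 0.63 in L-540, of which only the first was called. The KM-H2 call was also lost without control replicate 1 or 3 (0.49 and 0.43) or any treated replicate (0.48 to 0.51), and the L-540 call without control replicate 1 or 2 (0.51 and 0.50) or treated replicate 2 or 3 (0.55 and 0.56). The differences in L-428 (0.22) and SUP-HD1 (0.20) were not called, and no pair of lines differed in the response. The mean over the lines was 0.38 ± 0.08 (limma adjusted p = 0.0010), under the size required. The control level was lowest in L-428, with KM-H2 minus L-428 at 1.01, L-428 minus L-540 at −0.79 and L-428 minus SUP-HD1 at −0.67, all called, whereas the other 3 lines did not differ from each other by the test. The probe was dim in L-428, with control intensities of 131.3 to 184 before correction, though detected on all 3 of these arrays.

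EIF2AK4, which encodes GCN2 (chr15:39934115-40035591), had the narrowest range of control levels among the 9 probes, with means from 8.81 in KM-H2 to 9.21 in L-428. It was called in no line and in none of the 6 comparisons of control levels. Of these, KM-H2 minus L-428 (−0.398, limma adjusted p = 0.0049) fell just short of the size required. The largest EIF2AK4 difference with AEZS-136 was −0.34 ± 0.11 in SUP-HD1. Treated arrays there read 8.48, 8.70 and 8.63, against 8.97, 8.97 and 8.90 in controls. The groups did not overlap, but the adjusted p of 0.063 by limma missed the threshold. Over the lines the mean was −0.08 (95% interval −0.20 to 0.04).

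EIF2S1, the gene of the phosphorylated subunit (chr14:67360328-67386516), rose in KM-H2 alone among the lines by the test. Treated KM-H2 arrays read 8.92, 8.96 and 8.89, against 8.68, 8.34 and 8.48 in controls, a rise of 0.43 ± 0.13 (limma adjusted p = 0.029). This call was lost on the authors' normalized values (0.35), within export sets 1 and 2 (0.33 and 0.62), without control replicate 2 or 3 (0.35 and 0.42) and without any treated replicate (0.41 to 0.45). The differences were 0.13 in L-428, −0.13 in L-540 and −0.07 in SUP-HD1. The KM-H2 response did not differ by the test from that of any other line (adjusted p at least 0.11 by limma). In controls EIF2S1 was highest in L-540 (9.02 ± 0.30) and lowest in L-428 (8.18 ± 0.07, SD, n = 3 each). KM-H2 minus L-540 (−0.52) and L-428 minus L-540 (−0.84) were called, while KM-H2 and SUP-HD1 did not differ by the test.

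**Figure D2:**
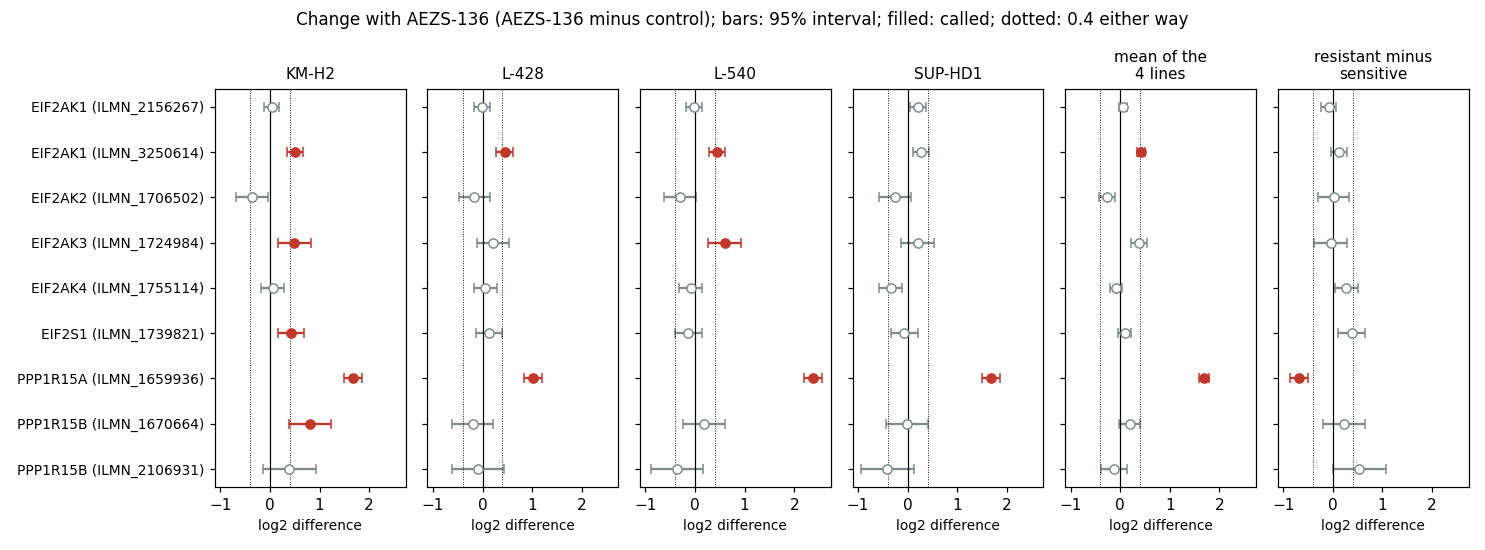
Log2 difference of each probe, AEZS-136 minus control, with its 95% interval (horizontal axis) in the 4 lines, in their mean, and as resistant minus sensitive lines. Filled points are called and dotted lines mark 0.4 either way; PPP1R15A is the only gene called in every panel.

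Counted together, 5 of the 9 probes rose in KM-H2, where 11.2% of all probes were called in either direction. In L-428 2 of 9 rose, against 7.27% of all probes, and in L-540 3 of 9, against 9.06%. In SUP-HD1 only PPP1R15A rose, 1 of 9, against 6.54% of all probes. In the mean of the lines PPP1R15A and ILMN_3250614 of EIF2AK1 rose, 2 of 9, against 6.69%. No member was called lower in any line. The median difference of the 9 probes was 0.43 in KM-H2, 0.05 in L-428, −0.02 in L-540 and −0.02 in SUP-HD1, beside −0.01, −0.01, −0.01 and 0.01 over all probes. In KM-H2 the count was 3 when the third control array or any treated array was left out, and within export set 2, with 1 KM-H2 array a group, PPP1R15A was the only member called.

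Control levels of the members differed in many pairs of lines, as did those of other genes. Of 54 comparisons, 31 were called (57.4%), against 46.4% over all probes. The share of all probes called was 46.2% for KM-H2 against L-428, 48.6% for KM-H2 against L-540, 49.6% for KM-H2 against SUP-HD1, 44.5% for L-428 against L-540, 42.9% for L-428 against SUP-HD1 and 46.6% for L-540 against SUP-HD1.

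Around the members, 35 genes of the eIF2 pathway were listed by role and 34 were measured. The list was drawn up with earlier results of these data known, so its counts only describe. With 1 probe per gene, 9 rose and 0 fell in the mean of the lines, where 4.22% of all probes rose and 2.47% fell, with a median difference of 0.07 beside −0.01 for all probes. Of 13 genes for eIF2, its exchange factor and its cycle, only EIF2S2, the beta subunit of eIF2, rose in this mean, by 0.73 ± 0.04 (limma adjusted p = 1.5e-11). It was called in 3 lines and stood at 0.29 in L-540, whereas the gamma subunit EIF2S3 differed by 0.06. EIF5, which stimulates GTP hydrolysis by eIF2, was called in KM-H2 (0.82) and L-540 (0.44) but not in the mean (0.35). The 3 catalytic subunits of protein phosphatase 1, PPP1CA, PPP1CB and PPP1CC, ran from −0.08 to 0.06 and were not called. Among 4 activators of the kinases none was called in the mean, and DELE1, which relays mitochondrial stress to HRI, stood at 0.35 there and was called in L-428 (0.43) and SUP-HD1 (0.40). None of 5 measured inhibitors or chaperones was called in the mean. DNAJC3, an inhibitor of PKR and PERK, stood at −0.36, and HSPA5, the chaperone that holds PERK inactive, was called in KM-H2 (0.54).

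Of the 9 genes listed as read-outs of eIF2alpha phosphorylation, which itself was not measured, 8 rose in the mean of the lines. DDIT3, which encodes the transcription factor CHOP, rose by 2.50 ± 0.05, ATF3 by 1.25 ± 0.04 and ATF4 by 1.08 ± 0.04. DDIT4, a brake on mTOR signalling, rose by 1.44 ± 0.06, SESN2, a sensor upstream of mTOR, by 1.40 ± 0.12, CEBPB by 1.05 ± 0.04 and asparagine synthetase (ASNS) by 0.45 ± 0.04. CHAC1, a glutathione-degrading enzyme, was also called, but in 3 lines at least 1 of its groups had no array that detected it. TRIB3, a pseudokinase induced by CHOP, was not called (−0.05). Other probes of ATF4 ran from −0.22 to 1.27 and that of ATF3 stood at 0.38, so these sizes depend on the probe. Resistant minus sensitive, the mean rise was larger for DDIT4 (0.77, limma adjusted p = 0.00066) and CEBPB (0.55, limma adjusted p = 0.00098), opposite to PPP1R15A. That comparison called 2.1% of all probes. None of the other read-out genes was called in it, DDIT3 among them at 0.08.

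**Figure D3:**
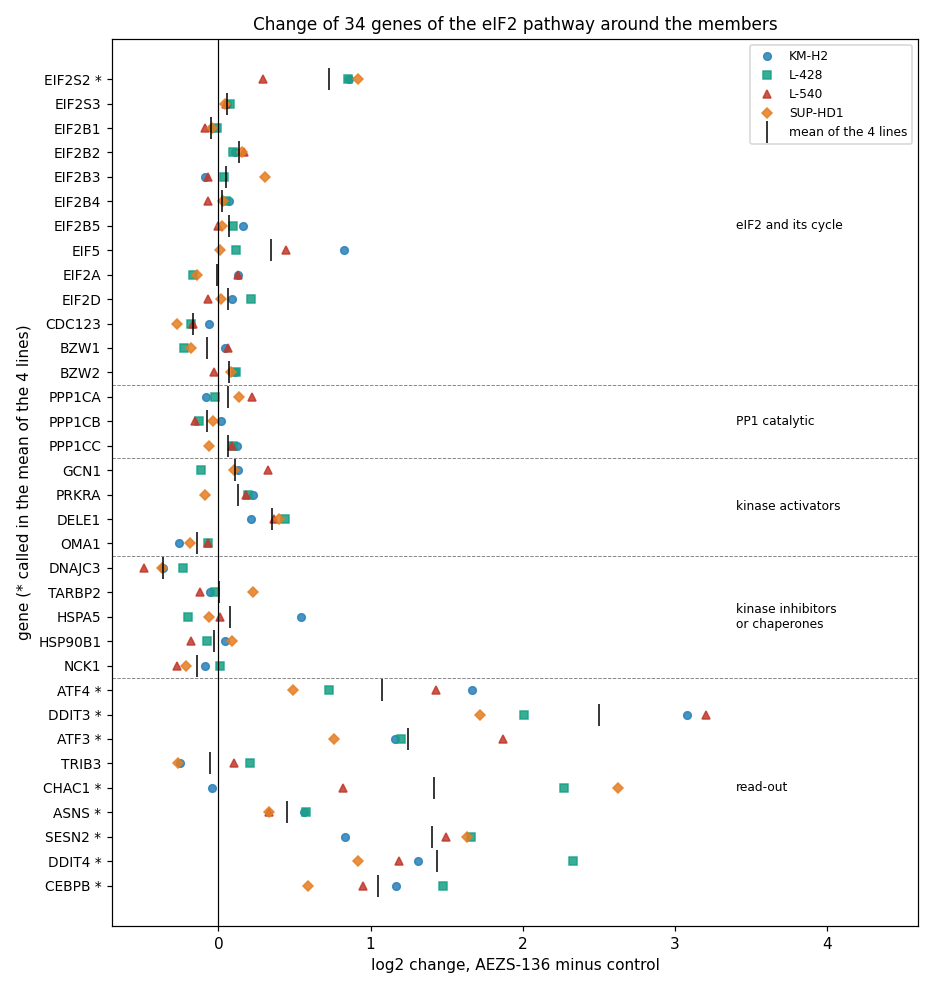
Log2 difference, AEZS-136 minus control (horizontal axis), of 34 eIF2 pathway genes, 1 probe each, in the 4 lines (symbols) and in their mean (bars); dashed lines separate the roles. The called genes, marked with an asterisk, are EIF2S2 and 8 of the 9 read-out genes; for CHAC1, 3 lines had a group with no detected array.

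DDIT3 was also the gene whose pattern was most like PPP1R15A over the 24 arrays (Pearson's r = 0.97), followed by CLDN15 (0.95), CLK4 (0.93), SNHG32 (0.92) and PSPC1 (0.91). With each line's mean taken off, DDIT3 (0.97) and SNHG32 (0.97) led again, with CCDC174, TRAPPC2 and WHR1 (0.97 each). For ILMN_3250614 of EIF2AK1 the nearest genes were CTH, RHBDD3 (both 0.97), JUN, N4BP2L2 (both 0.96) and POGLUT1 (0.95). With line means off they were BRD2 (0.98), SNHG17 (0.97), VCPKMT, UIMC1 and C19orf48P (0.96 each). The arrays share lines and treatment, so these correlations only describe likeness.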

How the data were processed

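The authors summarised the bead arrays in BeadStudio (version not given in the sources used here) and deposited an intensity per probe, not normalized, beside a detection value, another deposited score equal to 1 minus the detection p. They also deposited log2 values, normalized by robust splines in lumi, which served as an alternative. In 1 run of 3270 probes, none of a member, the columns were out of register; these were left out and 44053 used. The shift also gave the export order; no slide is named.

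Intensities were background corrected and quantile normalized with neqc (limma 3.58.1, R 4.3.3, offset 16). Probes detected (p under 0.05) on at least 3 arrays were fitted by lmFit and eBayes with 1 coefficient per group, and p-values were adjusted by Benjamini-Hochberg over all kept probes. Gene symbols came from the platform table, which lists 30121 probes. The exact permutation of differences between probes (Python 3.11.15) was added after the values were seen. Scripts were tested on simulated data. All member probes are named, with the partners called in the mean of the lines and, for each member probe called there, the 5 probes most like it. Members and lists were chosen with earlier results of these data known. Alternatives were other normalizations, filters, blocks and tests, and leaving out each array.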

Additional observations from a re-analysis of the deposited data

Results flagged for a closer look

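The PPP1R15A response differed between lines and classes by the test of the difference itself. On average the rise was smaller in resistant than in sensitive lines (−0.68, log2), but each class rests on 2 lines. KM-H2 and SUP-HD1, from opposite classes, differed by −0.01 and were not called. Between lines, KM-H2 minus L-428 was 0.66, KM-H2 minus L-540 −0.70, L-428 minus L-540 −1.35, L-428 minus SUP-HD1 −0.66 and L-540 minus SUP-HD1 0.69. The pairs share lines, so these 5 values are not independent of each other.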

How the results depend on the processing

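PPP1R15A was called in every line under each alternative run, with a mean over the lines of 1.43 to 1.75 (1.67 to 1.71 with any array left out). Its class difference kept its direction (−0.84 to −0.42) but was not called within either export set, where fewer arrays were fitted; the count of members called between classes was then 0. Counts of member probes called were lower under several settings. On the authors' normalized values 1 was called in KM-H2, L-428, L-540 and the mean of the lines, and 19 control level differences. Calls over all 24578 probes were fewer there too: 1173 in KM-H2, 721 in L-428, 925 in L-540 and 521 in the mean. The main fit called 2758, 1788, 2227 and 1645 of them. Without background correction 2 were called in KM-H2, 1 in L-428, L-540 and the mean, and 19 control level differences. All-probe calls were then 1275 in KM-H2, 773 in L-428, 985 in L-540 and 563 in the mean. With median scaling 3 were called in KM-H2 and 1 in L-428, beside 1872 and 658 over all probes. Within export set 1, 1 was called in L-428 and L-540. Within export set 2, 1 was called in KM-H2, L-428, L-540 and the mean. The methods' t-test called 1 in KM-H2, L-428 and L-540, beside 414, 93 and 187 of all 47323 probes. Limma within each line called 1 in L-428, beside 949 over all kept probes. Apart from the smaller samples, the cause was not tested.

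With 1 array left out the counts ran from 3 to 5 in KM-H2, 1 to 2 in L-428, 2 to 3 in L-540, 1 to 1 in SUP-HD1, 1 to 3 in the mean and 27 to 32 for control levels. KM-H2 fell to 3 without control replicate 3 or any treated replicate, L-428 to 1 without control replicate 1, and the mean to 1 without KM-H2 control replicate 1, where EIF2AK1 stood at 0.40. Of single member values, 16 calls were lost and 2 gained over all left-out arrays, and 43 lost and 1 gained over the other alternatives; no called value turned direction.

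Over all probes, KM-H2 calls numbered 2758, against 1173 on the authors' values, 1872 with median scaling and 414 by the methods' t-test. Median scaling moved the share of rises among KM-H2 calls to 88.5%, against 57.7%, in L-540 to 82.6%, against 61.0%, in SUP-HD1 to 71.7%, against 44.9%, and in the mean to 79.7%, against 63.0%, but in L-428 to 46.0%, against 55.7%. Replicate numbers did not pair the arrays (deviations correlated at −0.18 to 0.10 over 12 pairs, with 6 best matched to their own number), and a replicate block gave 2754 KM-H2 calls and 5 member calls there. The dim PPP1R15B probes limit what can be said of CReP.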
